A study of Mus musculus with 4 samples.

Results

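The tRNA that carries aspartate (tRNA-Asp) is a substrate of Dnmt2, and its fragments were followed here along the tRNA in bone marrow with and without that enzyme. The members are the 71 positions of the Asp table, taken whole on the forward strand, out of 1698 positions in 23 tRNA families. The tissue was bone marrow, in which blood cells form, of C57BL/6 mice at postnatal day 8, and small RNA was sequenced. There were 2 libraries of the genotype Dnmt2-/- (Dnmt2 KO) and 2 wild-type libraries (WT), each numbered 1 and 2. The labels give neither the nature of the Dnmt2 allele nor the number of mice behind a library, and they do not say that replicates are separate animals. P-values therefore speak only of the scatter among these 4 libraries, part or all of which may be technical.

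Dnmt2 is a methyltransferase that places a methyl group on cytosine 38 of tRNA-Asp-GTC, just 3′ of the anticodon. The same tRNA carries the modified base queuosine at the first anticodon base. Ribonucleases such as angiogenin cut tRNAs in the anticodon loop under stress, which leaves a 5′ fragment that starts at the first base and a 3′ fragment that starts in the loop. In flies and mice, loss of Dnmt2 has been linked to more cleavage of its substrate tRNAs. No tRNA sequence is printed here.

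Positions are counted from 1, so that the row labelled 0 in the deposited table is position 1. RefSeq (GRCm38.p6) lists 16 genes whose symbols start with n-TD, the aspartate tRNA genes, and all 16 are 72 bases long, which is 1 base more than the table. The tables for GlyGCC, Glu and Lys are also 1 position shorter than their commonest annotated gene. The missing base may be at either end, so a position is base number n or n + 1 of the tRNA. Values are coverage in deposited units, which carry a constant per library that no label or header explains. All values above 0 are whole multiples of a smallest step per library, read here as the worth of 1 read.

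The Asp family was deeply covered. Its highest position had 7144 and 4506 reads in Dnmt2 KO replicates 1 and 2, against 10211 and 5756 reads in WT replicates 1 and 2. The lowest position was position 1 in the Dnmt2 KO libraries, with 464 and 479 reads. In the WT libraries it was position 36, with 1394 and 1415 reads. Asp made up 3.09% and 2.49% of all tRNA coverage in the Dnmt2 KO libraries, and 3.03% and 2.35% in the WT libraries. It was seventh among the 23 families by mean summed coverage. Fewer cells of a type and less RNA per cell cannot be told apart in these bulk samples.

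All 4 libraries showed the same outline, a low 5′ plateau with a step in it and a high 3′ plateau, parted by a dip at position 36. In the first plateau, positions 1 to 14, reads ranged from 464 to 500 and from 479 to 511 in Dnmt2 KO replicates 1 and 2. They ranged from 1765 to 1852 and from 1591 to 1658 in WT replicates 1 and 2. Coverage over this stretch varied by at most 7.20% of its highest value in any library, so that few reads, on balance, started or ended within it.

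A second level began at position 20, in the part of the tRNA that forms the D arm. Between positions 20 and 31, reads ranged from 1150 to 1232 and from 1196 to 1232 in Dnmt2 KO replicates 1 and 2, and from 2870 to 2987 and from 2706 to 2781 in WT replicates 1 and 2. Coverage then dropped between positions 32 and 36, the region of the anticodon loop. The dip at position 36 held 514 and 503 reads in the Dnmt2 KO libraries, against 1394 and 1415 reads in the WT libraries.

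The 3′ plateau began at positions 37 to 39. Position 37 alone had 4148 and 2096 reads in Dnmt2 KO replicates 1 and 2, against 6233 and 2673 reads in WT replicates 1 and 2. From position 42 to position 55 coverage was nearly level, varying by at most 4.03% of its highest value in any library. The highest position was 48 in 3 libraries, and position 44 in WT replicate 2. From there coverage declined slowly to position 70 and then sharply at position 71, the last of the table.

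**Figure D1:**
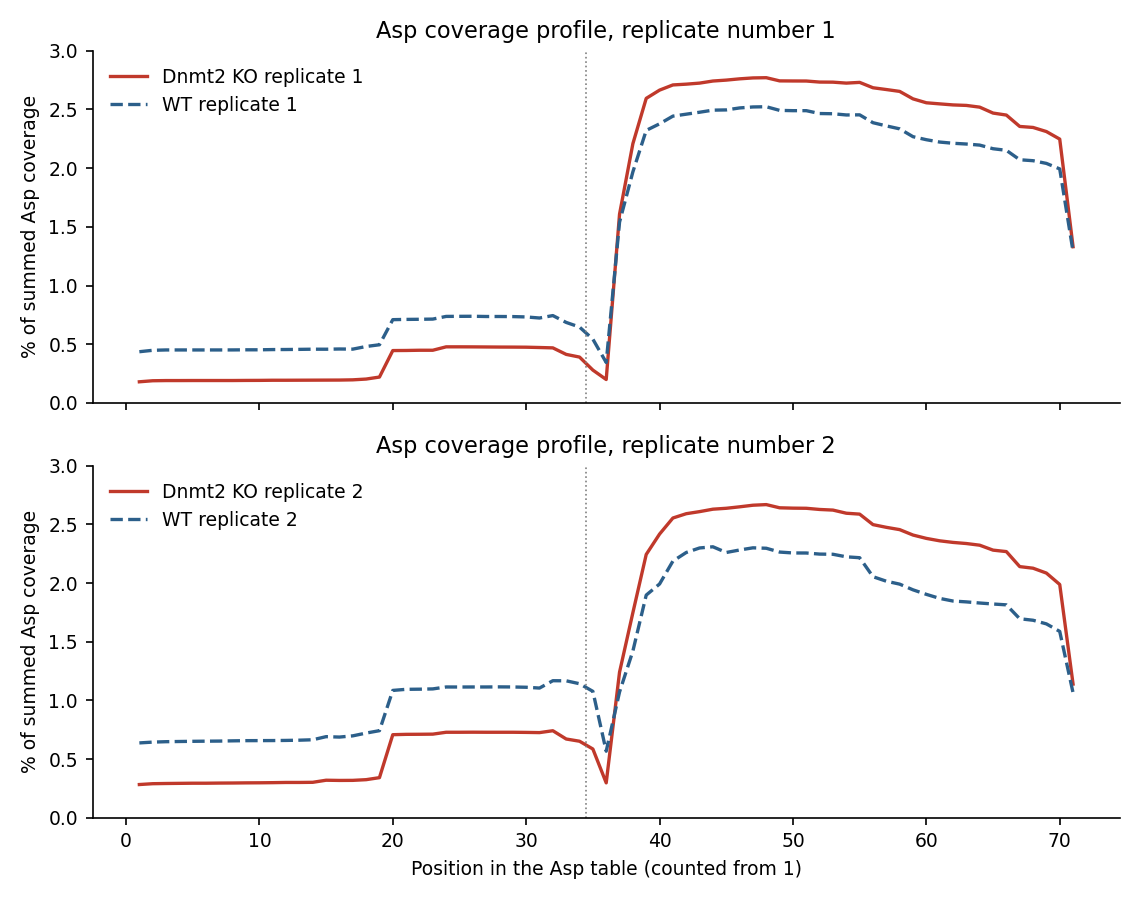
Percent of the summed Asp coverage at each position (y axis) along the Asp table (x axis), with Dnmt2 KO as a solid red line and WT as a dashed blue line, replicate number 1 above and 2 below; the dotted line marks the border between positions 34 and 35. In both panels Dnmt2 KO lies below WT over positions 1 to 36 and above it over positions 37 to 71.

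The first comparison asked at which positions the share of Asp coverage differed between the genotypes. A share within a library does not depend on the unexplained constant, but shares of a whole must sum to the same total, so a lower 5′ share brings a higher 3′ share with it. At position 1 the share was 0.180% and 0.284% in Dnmt2 KO replicates 1 and 2, against 0.436% and 0.638% in WT replicates 1 and 2. At position 48, on the 3′ plateau, it was 2.77% and 2.67% in the Dnmt2 KO libraries, against 2.52% and 2.30% in the WT libraries. The genotypes did not overlap at either position, Dnmt2 KO being the lower at position 1 and the higher at position 48.

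Within each replicate number, all 36 positions from 1 to 36 had a lower share in Dnmt2 KO, and all 35 positions from 37 to 71 had a higher one. Over positions 1 to 14 the shares in Dnmt2 KO relative to WT were 0.413 to 0.425 in number 1 and 0.444 to 0.457 in number 2. Over positions 20 to 31 it was 0.628 to 0.653 in number 1 and 0.649 to 0.657 in number 2. Over positions 37 to 71 it was 1.03 to 1.15 in number 1 and 1.07 to 1.27 in number 2. These 3 stretches thus stood at 3 levels, with the first plateau farthest below WT. Before the loop starts the relative share fell again. It was 0.515 and 0.544 at position 35, and 0.579 and 0.525 at position 36, in numbers 1 and 2.

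Counting positions where the genotypes did not overlap, Dnmt2 KO was the lower in both its libraries at 33 of 71 Asp positions. Over all 1656 positions with coverage this held for 15.9%. Dnmt2 KO was the higher, again without overlap, at 30 of 71 Asp positions, against 14.7% of all positions. Neighbouring positions share reads, so each plateau counts as about a single observation repeated.

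No Asp position passed the test across all positions. With limma on log2 of the percent share plus 0.05, 0 of 1656 positions (0%) passed an adjusted p of 0.05, the lowest adjusted p being 0.942, and 60 positions (3.62%) had an unadjusted p under 0.05. Of these, 16 were Asp positions, all between positions 1 and 19. The 5′ position with the lowest p was position 3, with a log2 difference of −1.04 (SE 0.30, 95% interval −1.97 to −0.12, limma adjusted p = 0.942). At position 1 the difference was −1.06 (SE 0.31). At position 32, the highest 5′ position of 3 libraries, it was −0.62 (SE 0.36), and at position 24, the highest 5′ position of Dnmt2 KO replicate 1, it was −0.58 (SE 0.34). Without WT replicate 2 these values were −0.31 at position 32 and −0.30 at position 24, and without Dnmt2 KO replicate 1 they were −0.31 and −0.30 as well. With a pseudocount 10 times larger, positions 1 and 3 were both at −0.50. At the 3′ peak, position 48, the difference was 0.17 (SE 0.13), and at position 44, the peak of WT replicate 2, it was 0.16 (SE 0.13). Without WT replicate 2 these were 0.11 and 0.10. Past the border at position 34, the lowest p was at the dip, position 36, with a difference of −0.75 (SE 0.34, −0.42 without WT replicate 2). At the last position the difference was 0.069 (SE 0.18).

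Where reads begin and end was read from the change in coverage between adjacent positions. A gain of reads into a position is the number of reads that start there minus the number that ended at the position before, and so is a lower bound on the starts. Summed over all gains, this gave at least 7878 and 5265 Asp reads in Dnmt2 KO replicates 1 and 2, and at least 11898 and 7387 reads in WT replicates 1 and 2. The largest gains into single positions were at 3 places, namely position 1, position 20 and positions 37 to 39. In the replicate 2 libraries, positions 40 to 44 together gained more than position 20. They held 12.4% of net starts in Dnmt2 KO replicate 2 and 13.9% in WT replicate 2. Shares of net starts at single sites are given by library and were not tested.

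Reads from the first base made up a smaller share in Dnmt2 KO. Position 1 held 464 and 479 reads in Dnmt2 KO replicates 1 and 2, which is 5.89% (95% exact binomial interval 5.38 to 6.43) and 9.10% (8.33 to 9.91) of all net starts. In WT replicates 1 and 2 it held 1765 and 1591 reads, or 14.8% (14.2 to 15.5) and 21.5% (20.6 to 22.5). The mean share was 7.49% ± 2.27 in Dnmt2 KO and 18.2% ± 4.74 in WT (SD, n = 2 each). As a ratio of Dnmt2 KO to WT, this share was 0.397 in number 1 and 0.422 in number 2.

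Reads that start at position 20, in the D arm, made up nearly the same share in both genotypes. The gain there was 582 and 618 reads in Dnmt2 KO replicates 1 and 2, or 7.39% (6.82 to 7.99) and 11.7% (10.9 to 12.6) of net starts. In WT replicates 1 and 2 it was 865 and 855 reads, or 7.27% (6.81 to 7.75) and 11.6% (10.9 to 12.3). As a ratio of Dnmt2 KO to WT it was 1.02 in number 1 and 1.01 in number 2, and within each number the counting intervals overlap. The share differed more between numbers than between genotypes.

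Net starts at position 20, relative to reads over position 1, were higher in both Dnmt2 KO libraries than in both WT libraries. For each read over position 1 there were 1.25 and 1.29 net starts at position 20 in Dnmt2 KO replicates 1 and 2, against 0.490 and 0.537 in WT replicates 1 and 2. The mean was 1.27 ± 0.0254 in Dnmt2 KO and 0.514 ± 0.0335 in WT (SD, n = 2 each). The genotypes did not overlap. Because the ratio also holds the lower share of reads at position 1 in Dnmt2 KO, it is no separate result about the starts at position 20. It was not computed for other families. Put as coverage, the reads over position 1 equalled 37.7% and 38.9% of those over position 24 in the Dnmt2 KO libraries, against 59.2% and 57.3% in the WT libraries. This ratio was chosen after its values were seen and has no test of its own.

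The start at position 20 also gave the lowest p of any Asp pair in the test of adjacent positions. Coverage at position 20 was 2.02 and 2.07 times that at position 19 in Dnmt2 KO replicates 1 and 2, against 1.43 and 1.46 times in WT replicates 1 and 2. The log2 difference of this step was 0.50 (SE 0.022, 95% interval 0.42 to 0.57, unadjusted p = 0.000618, limma adjusted p = 0.202), the fifth lowest p among 1636 adjacent pairs. Since it is a ratio to the reads already there, it holds both the lower first plateau and the start itself. No pair passed the threshold (0 of 1636, 0%), while 89 pairs (5.44%) had an unadjusted p under 0.05, of which 2 were Asp pairs, those into positions 20 and 71. The steps did not overlap between genotypes, with Dnmt2 KO the higher, at 14 of 70 Asp pairs (13.1% of all pairs), and with Dnmt2 KO the lower at 9 of 70 (12.8% of all pairs).

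**Figure D2:**
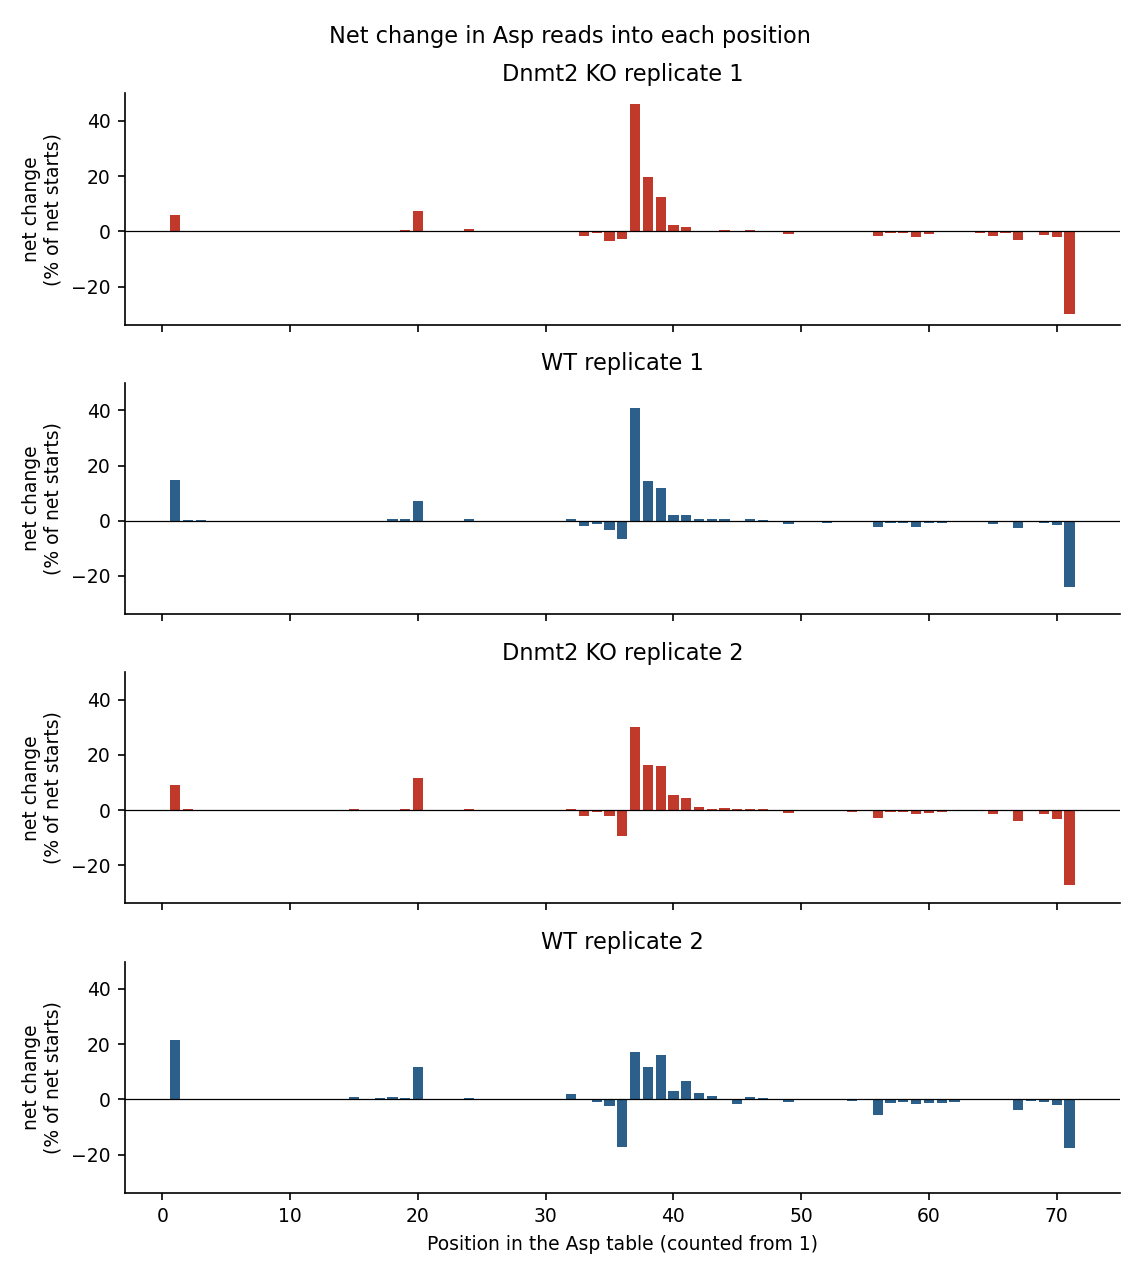
Net change in Asp reads into each position (y axis, percent of all net starts of the library) along the Asp table (x axis), for Dnmt2 KO in red and WT in blue, number 1 in the upper pair of panels and number 2 in the lower pair. The largest gains stand at positions 1, 20 and 37 to 39, with smaller ones at positions 40 to 44. Losses stand at positions 33 to 36 and 71, and the bar at position 1 is shorter in both Dnmt2 KO libraries.

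The 3′ fragments began in the anticodon loop, around the cytosine that Dnmt2 methylates. Positions 37 to 39 together held 78.4% (77.5 to 79.3) and 62.4% (61.1 to 63.7) of net starts in Dnmt2 KO replicates 1 and 2, against 67.2% (66.4 to 68.1) and 44.9% (43.7 to 46.0) in WT replicates 1 and 2. Within each number Dnmt2 KO was above WT, by 1.17 times in number 1 and 1.39 times in number 2, but WT replicate 1 lay above Dnmt2 KO replicate 2. The mean was 70.4% ± 11.3 in Dnmt2 KO and 56.1% ± 15.8 in WT (SD, n = 2 each), a gap smaller than the WT SD. These SDs hold the difference between numbers 1 and 2, which went the same way in both genotypes. Per read over position 1 there were 13.3 and 6.86 net starts at positions 37 to 39 in the Dnmt2 KO libraries. In the WT libraries there were 4.53 and 2.08, and on this scale the genotypes did not overlap. The scale also holds the lower share of reads at position 1 in Dnmt2 KO, so it is no separate result about the loop starts. It has no test of its own.

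The 3 loop positions did not share the difference evenly. Position 37 had a gain of 3634 and 1593 reads in Dnmt2 KO replicates 1 and 2, or 46.1% and 30.3% of net starts, against 4839 and 1258 reads, or 40.7% and 17.03%, in WT replicates 1 and 2. Position 38 had 19.6% and 16.3% in the Dnmt2 KO libraries, against 14.6% and 11.8% in the WT libraries. Position 39 had 12.6% and 15.9% in the Dnmt2 KO libraries, against 12.0% and 16.1% in the WT libraries. Of these 3 positions, only position 38 had shares that did not overlap between genotypes. Such shares were not computed for other families, so no background stands beside this separation. As a log2 step, the gain into position 38 was also higher in Dnmt2 KO without overlap, as at 13.1% of all adjacent pairs. Positions may be 1 base off the tRNA numbering, and an effect at the methylated cytosine was not tested. A further 4.84% and 12.4% of net starts in the Dnmt2 KO libraries, against 5.87% and 13.9% in the WT libraries, lay at positions 40 to 44.

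Among the loop starts themselves, position 37 took 58.8% (57.6 to 60.1) and 48.5% (46.8 to 50.2) in Dnmt2 KO replicates 1 and 2, against 60.5% (59.4 to 61.6) and 37.9% (36.3 to 39.6) in WT replicates 1 and 2. Relative to WT this was 0.973 times in number 1, where the counting intervals overlap, and 1.28 times in number 2. The gain into position 37 is net of reads that end at position 36. That position held 514 and 503 reads in the Dnmt2 KO libraries, against 1394 and 1415 in the WT libraries. How many of these reads end there cannot be seen, and the effect on these shares was not tested. Position 37 was the commonest loop start in all 4 libraries. Position 39 took 16.1% (15.2 to 17.1) and 25.5% (23.99 to 26.998) in the Dnmt2 KO libraries, against 17.8% (17.01 to 18.7) and 35.8% (34.2 to 37.5) in the WT libraries, which was 0.903 and 0.711 times WT in numbers 1 and 2. Its genotypes overlapped, since Dnmt2 KO replicate 2 lay above WT replicate 1. As steps on the log2 scale, the difference was 0.99 (SE 0.70, limma adjusted p = 1) into position 37, 0.096 (SE 0.029, limma adjusted p = 0.925) into position 38 and −0.031 (SE 0.099, limma adjusted p = 1) into position 39. Without WT replicate 2 the difference was 0.37 into position 37 and 0.058 into position 39, and without Dnmt2 KO replicate 1 it was 0.52 into position 37 and 0.033 into position 39. Into position 37 it was 1.61 without WT replicate 1 and 1.46 without Dnmt2 KO replicate 2. The step into position 37 is a ratio to the dip at position 36, so it also holds the lower share there in Dnmt2 KO. The log2 difference in share was 0.13 (SE 0.27) at position 37 and −0.75 (SE 0.34) at position 36.

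**Figure D3:**
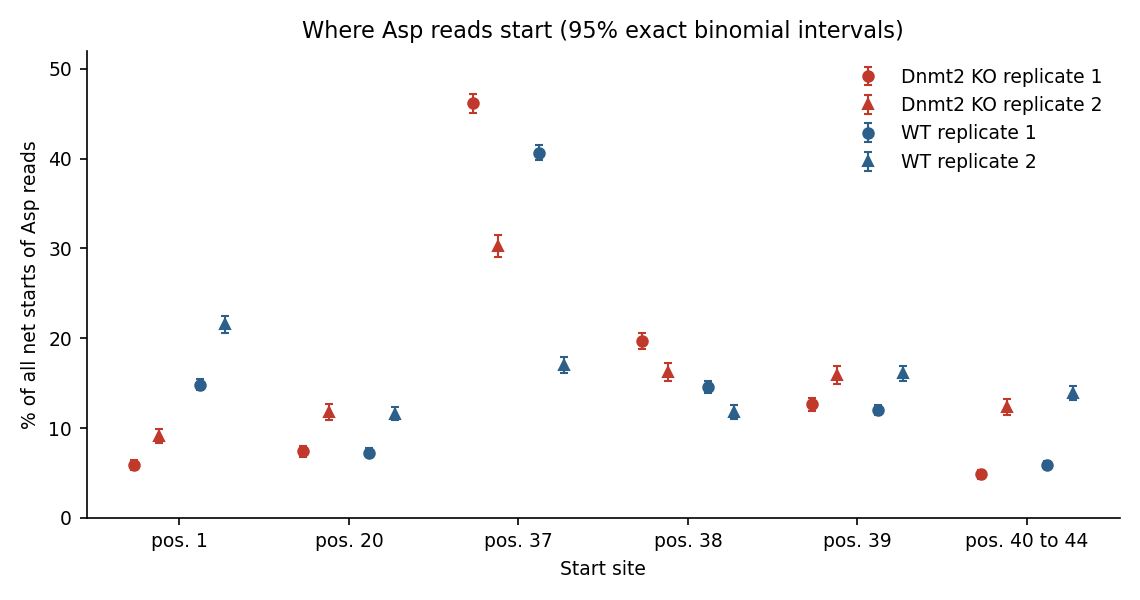
Share of all net starts of Asp reads (y axis, percent) at 6 start sites (x axis) in each library, Dnmt2 KO in red left of WT in blue, with circles for replicate 1, triangles for replicate 2 and exact 95% binomial intervals for counting error only. The Dnmt2 KO points lie at 5.89% and 9.10% at position 1, below both WT points, and the genotypes lie side by side at position 20.

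The 5′ fragments ended just before the point where 3′ fragments began. From position 32 to position 36 coverage dropped by 57.5% (54.6 to 60.3) and 59.9% (57.1 to 62.6) in Dnmt2 KO replicates 1 and 2, against 53.7% (51.9 to 55.5) and 51.4% (49.6 to 53.2) in WT replicates 1 and 2. The genotypes did not overlap, and the Dnmt2 KO to WT ratio of the drop was 1.07 in number 1 and 1.16 in number 2. In number 1 the counting intervals overlap. The drop has no test of its own and was not computed for other families. What is left at position 36 can hold reads that run through the loop as well as those that end at position 36 itself, because that end is masked by the starts at position 37.

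Where in this stretch the reads ended depended on the replicate number. The step from position 35 to 36 took 29.8% and 64.9% of the loss in Dnmt2 KO replicates 1 and 2, against 49.7% and 84.9% in WT replicates 1 and 2. The step from position 34 to 35 took 41.2% and 14.9% in the Dnmt2 KO libraries, against 25.8% and 10.8% in the WT libraries. Within both numbers Dnmt2 KO had a smaller part of this net loss on the step into position 36 and a larger part on the step into position 35. The numbers differed by more than the genotypes. Ends at position 36 itself are not in this loss. The log2 step into position 36 differed by 0.059 (SE 0.25, limma adjusted p = 1), by −0.076 without WT replicate 2 and by −0.19 without Dnmt2 KO replicate 1.

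At the 3′ side, the largest loss was from position 70 to position 71. It took 40.8% (39.5 to 42.1) and 42.7% (41.0 to 44.4) of the reads over position 70 in Dnmt2 KO replicates 1 and 2, against 35.4% (34.3 to 36.4) and 32.9% (31.5 to 34.4) in WT replicates 1 and 2. The mean was 41.7% ± 1.34 in Dnmt2 KO and 34.1% ± 1.71 in WT (SD, n = 2 each), and the genotypes did not overlap. As a log2 step, Dnmt2 KO was the lower without overlap, as at 12.8% of all adjacent pairs. The log2 step into position 71 differed by −0.18 (SE 0.032, 95% interval −0.29 to −0.062, unadjusted p = 0.0188, limma adjusted p = 0.639). The mature 3′ end with its added CCA lies beyond the table, so how these ends relate to that tail was not tested.

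Ends between the 3′ peak and position 70 were spread thinly. From position 48 to position 70, 18.9% (17.98 to 19.81) and 25.5% (24.2 to 26.8) of reads were lost in Dnmt2 KO replicates 1 and 2, against 21.0% (20.2 to 21.8) and 30.8% (29.7 to 32.1) in WT replicates 1 and 2. Within each number the loss was smaller in Dnmt2 KO, at 0.899 and 0.827 times WT, yet Dnmt2 KO replicate 2 lay above WT replicate 1. In the mean of the 4 libraries the largest of these losses was into position 67, although in WT replicate 2 alone it was into position 56. Into position 67 the log2 step differed by 0.0051 (SE 0.022, limma adjusted p = 1), by −0.016 without WT replicate 2 and by −0.0077 without Dnmt2 KO replicate 1.

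The summed 5′ and 3′ coverage asked whether a change in their ratio came from fewer 5′ or more 3′ fragments. Over positions 1 to 34 the sum was 0.357 and 0.782 units in Dnmt2 KO replicates 1 and 2, against 0.518 and 0.992 units in WT replicates 1 and 2. Over positions 35 to 71 it was 3.03 and 3.95 units in the Dnmt2 KO libraries, against 2.14 and 2.38 units in the WT libraries. The Dnmt2 KO to WT ratio of the 5′ sum was 0.690 in number 1 and 0.788 in number 2, and that of the 3′ sum 1.42 in number 1 and 1.66 in number 2. The genotypes overlapped for the 5′ sum. They did not for the 3′ sum, where Dnmt2 KO was the higher, as in 17.4% of all 46 parts of the 23 families; in 0% of parts was Dnmt2 KO the lower without overlap.

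These levels depend on the unexplained constant. The 5′ sum averaged 0.570 ± 0.300 units in Dnmt2 KO and 0.755 ± 0.336 in WT, and the 3′ sum 3.49 ± 0.654 and 2.26 ± 0.167 units in the same order (SD, n = 2 each). With limma on log2 of the sum plus 0.001, the difference was −0.44 (SE 0.88, adjusted p = 0.981) for the 5′ part and 0.62 (SE 0.80, adjusted p = 0.981) for the 3′ part. Of the 46 parts, 0 (0%) passed, and 0 had an unadjusted p under 0.05. The median difference over all 46 parts was 0.45 as deposited, and relative to it the Asp 5′ part stood at −0.88 and the 3′ part at 0.17. Without WT replicate 2 the 5′ difference turned to 0.031, and without Dnmt2 KO replicate 1 to 0.13.

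**Figure D4:**
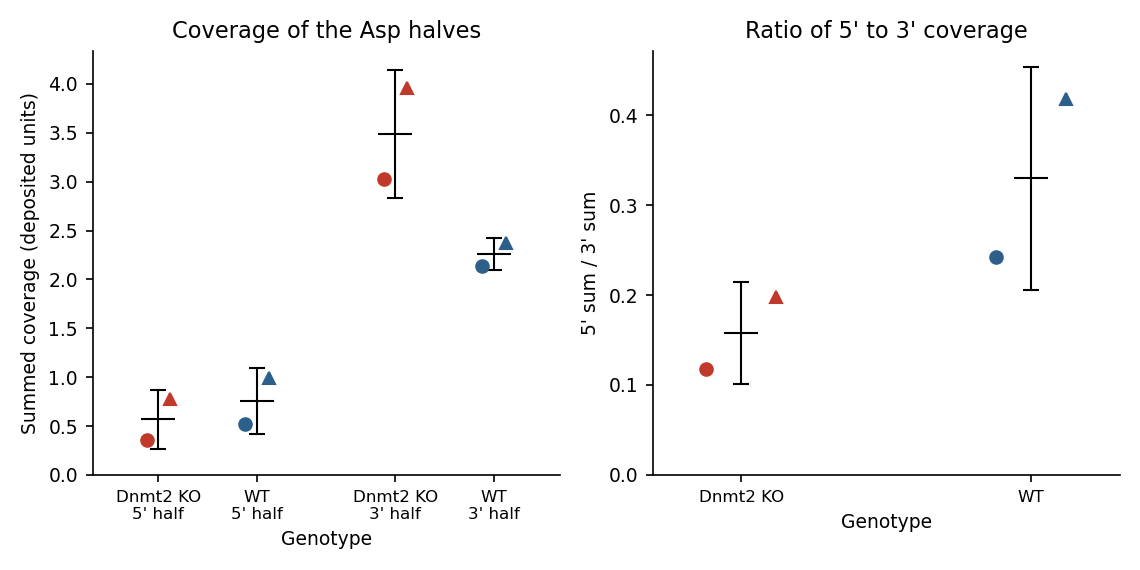
Summed Asp coverage over positions 1 to 34 and 35 to 71 in deposited units (left) and the ratio of the 5′ to the 3′ sum (right), with Dnmt2 KO in red left of WT in blue; circles are replicate 1, triangles replicate 2, and black bars the mean and SD. The ratio lies at 0.118 and 0.198 in Dnmt2 KO, below 0.242 and 0.418 in WT.

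The ratio of 5′ to 3′ coverage is free of that constant. It was 0.118 and 0.198 in Dnmt2 KO replicates 1 and 2, against 0.242 and 0.418 in WT replicates 1 and 2. The genotypes did not overlap, with Dnmt2 KO the lower, as in 17.4% of the 23 families, while 4.35% had Dnmt2 KO the higher without overlap. The Dnmt2 KO to WT quotient of this ratio was 0.488 in number 1 and 0.474 in number 2. With limma on log2 of the ratio the difference was −1.06 (SE 0.68, 95% interval −2.46 to 0.35, adjusted p = 0.928), and 0 of 23 families (0%) passed, with 0 at an unadjusted p under 0.05. Without WT replicate 2 it was −0.66, and without Dnmt2 KO replicate 1 −0.68. The estimate was the lowest of the 23, whose median was −0.060. That Asp differed from the other families was not tested.

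Counting starts instead of coverage takes out the length of the fragments. Net starts at positions 35 to 71 outnumbered those at positions 1 to 34 by 5.39 and 3.17 times in Dnmt2 KO replicates 1 and 2, against 2.87 and 1.51 times in WT replicates 1 and 2. The genotypes did not overlap. The log2 difference of the 5′ to 3′ start ratio was −0.99 (SE 0.82, 95% interval −2.65 to 0.67, limma adjusted p = 0.786), and 0 of 23 families (0%) passed, with 0 at an unadjusted p under 0.05. Taken as 5′ to 3′, the start ratio was lower in Dnmt2 KO without overlap in 17.4% of families, Asp among them, and higher in 13%. With the border moved to position 38, within the loop starts, the difference turned to 0.076. With the border at position 34, it was −0.53 without WT replicate 2 and −0.61 without Dnmt2 KO replicate 1.

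**Figure D5:**
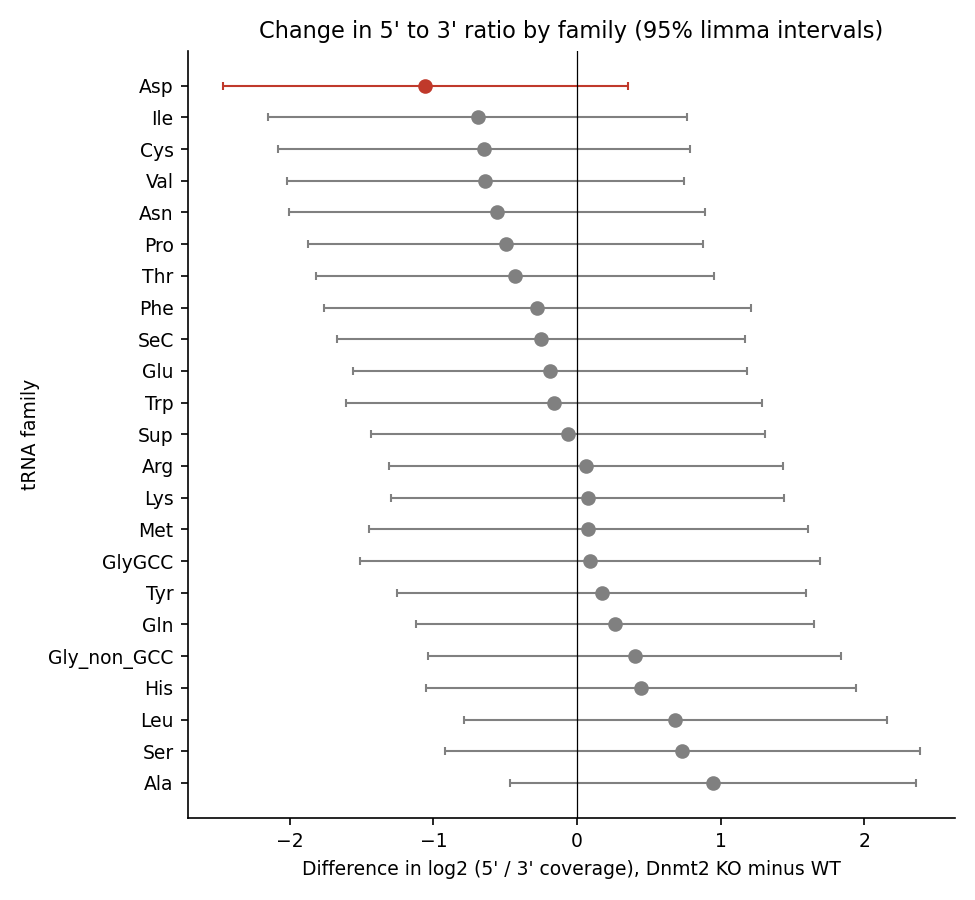
Difference in the log2 ratio of 5′ to 3′ coverage (x axis, Dnmt2 KO minus WT) for the 23 tRNA families (y axis), points with 95% limma intervals, Asp in red. Asp has the lowest estimate at −1.06, and its interval includes 0.

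Likeness of outline between Asp and the other families was measured as the summed absolute difference in mean WT share over 10 equal bins of relative position, where 0 would be an identical outline. The 3 nearest families were Trp at 40.8 percentage points, Arg at 41.9 and Gln at 46.4. Their 5′ share of coverage in WT replicates 1 and 2 was 6.80% and 7.502% for Trp, 18.3% and 17.9% for Arg, and 47.98% and 38.36% for Gln. Trp rests on far fewer reads, with 78 and 248 at its peak in Dnmt2 KO replicates 1 and 2, and 189 and 182 in WT replicates 1 and 2.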

How the data were processed

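The authors deposited 48 tables of signal, per the file headers coverage per position of a tRNA family, library and strand, times a constant per library, with no formula stated. Per the labels' protocols, Trizol RNA was treated with DNase I, end-repaired with T4 PNK and made into size-selected small RNA libraries. The tools named, per the submitters' processing notes, are Bowtie and CASAVA 1.8.3; for alignment settings, genome build, tRNA reference and reads matching several genes, the answer is not given in the sources.

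Each value above 0 was a whole multiple of the library's smallest value (100% of values, within 0.01), namely 1.31e-05, 2.80e-05, 6.57e-06 and 1.35e-05 units in Dnmt2 KO replicates 1 and 2 and WT replicates 1 and 2. These steps were read as 1 read; 3 reads served as floor. Intervals are exact (Clopper-Pearson) and cover counting error only. Since coverage counts a read at every position it spans, no count model was used. The whole-glycine table repeats its parts and was left out.

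Limma 3.58.1 in R 4.3.3 (lmFit, eBayes, genotype as sole term, two-sided) was fitted over all families, with Benjamini-Hochberg adjustment, on log2 values with pseudocounts of 0.001 (sums, ratios), 1e-04 units (net starts, adjacent pairs) or 0.05 percentage points (shares). Such log2 differences understate changes of low values. The fits were tested on simulated data. Exact permutation of 2 against 2 libraries cannot go below p = 0.333 and was not used. Named positions are the peaks, both ends, the 3 largest gains and losses, and the lowest p on either side of position 34. The Asp family, the border and the positions were chosen with earlier results of these data known.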

Additional observations from a re-analysis of the deposited data

Results flagged for a closer look

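The reverse strand of the Asp table, which no comparison used, held a few reads. Its highest position had 6 and 4 reads in Dnmt2 KO replicates 1 and 2, against 22 and 5 reads in WT replicates 1 and 2, each above the floor of 3 reads. This was 0.0840% and 0.0888% of the forward peak in the Dnmt2 KO libraries, and 0.215% and 0.0869% in the WT libraries.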

How the results depend on the processing

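Of 177 differences recomputed under an alternative, 164 kept their sign and their side of the threshold and 13 turned sign. Of 83 counts past the threshold, 80 were unchanged. The replicate number as a block brought 2 of 46 sums past the threshold, those of His and Gln over positions 1 to 34, and the smaller pseudocount brought in 1 net start ratio (GlyGCC) and 1 adjacent pair (in Sup, which has at most 5 reads at its peak). No Asp value passed under any alternative run. The 5′ sum turned from −0.44 to 0.031 without WT replicate 2 and to 0.13 without Dnmt2 KO replicate 1, with −1.002 as the lowest value over libraries left out. The 3′ sum ranged from 0.43 to 0.81, the 5′ to 3′ ratio from −1.45 to −0.66 and the net start ratio from −1.45 to −0.53 over libraries left out. With the libraries rescaled to a common total, the 3′ sum differed by 0.25 and the 5′ sum by −0.80. Rescaled by the median family, they differed by 0.18 and −0.88. With the border at position 38 the net start ratio turned to 0.076, by construction, since starts at positions 37 and 38 then count as 5′. The share at position 71 turned to −0.063 without WT replicate 2, to −0.039 without Dnmt2 KO replicate 1 (highest 0.20 over libraries left out), and to −0.100 as percent of the highest position, and that at position 44 to −0.0097 on that scale. The small steps into positions 36 (−0.076 and −0.19), 39 (0.058 and 0.033) and 67 (−0.016 and −0.0077) turned without WT replicate 2 and without Dnmt2 KO replicate 1, the other ends of their ranges being 0.30, −0.12 and 0.026; the cause was not tested. The step into position 37 ranged from 0.37 to 1.61 over libraries left out, and the share at position 1 from −1.33 to −0.79. The step into position 20 stayed between 0.46 and 0.51. The border at position 36 was added after seeing the data. Same-numbered libraries deviated alike (r = 0.995 between genotypes in number 1 minus number 2 over 71 Asp positions, which share libraries), but no label states what the numbers stand for. With the replicate block, the Asp 5′ to 3′ ratio kept −1.06 (SE 0.42, limma adjusted p = 0.407).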
